A study of Mus musculus with 74 samples.

Results

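The genes described here encode the potassium channels of the mouse dorsal root ganglion (DRG), with the accessory subunits that are named after them. They were chosen by symbol and by level, as the protein-coding genes whose symbol begins with Kcn and whose mean count over the 8 whole DRG libraries was at least 10. Of 94 protein-coding Kcn genes in the count files, 83 met this minimum and 11 did not. Kcnk16 (mean count 9.12) and Kcna7 (8) lay just below the minimum, whereas Kcna10 (12.4), Kcnj13 (14) and Kcne3 (15) lay just above it. By family, the 83 members included 7 Kv1, 2 Kv2, 4 Kv3, 3 Kv4, 9 silent modifier, 5 Kv7 and 7 EAG, ERG and ELK genes. The others were 8 genes grouped as calcium- and sodium-activated (Kcnu1 among them), 13 inward rectifier genes and 11 genes for tandem pore (K2P) channels. There were also 13 genes for auxiliary subunits, and Kcnrg, which encodes a regulator of channel assembly.

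Gene expression was sequenced in L4 DRG of female mice after a lesion of the spinal cord or of the sciatic nerve, to compare how sensory neurons respond to a central or a peripheral lesion. The paper states that, of the neurons in the ganglion, the cord lesion directly injures the ascending ones only. Whole DRG libraries came from wild type C57BL/6 mice aged 10-12 weeks, of which 4 were uninjured and 4 were taken 1d after SCI, a dorsal hemisection of the thoracic cord. FACS-sorted ascending DRG sensory neurons came from mice of the strain Thy1YFP16 aged 10-20 weeks, after digestion with papain and collagenase. They form 5 groups, with 6 naive mice and 4 mice each at 1d and 3d after SCI and at 1d and 3d after SNI, a crush of the sciatic nerve. The titles give naive mice 1, 2 and 5 the day 1 and naive mice 3, 4 and 6 the day 3, and here all 6 are pooled for both times. In this line the Thy1 promoter drives YFP in a subset of neurons, and the sort was meant to take the YFP-positive dorsal column neurons. The wells are called sorted neurons here by that label, although 20 of 66 held many reads of glia genes and most of these held few of neuron genes. Each mouse gave 3 technical wells of about 100 cells, 66 wells from 22 mice, and the wells of a mouse were summed. The sample titles divide the sorted neurons into 2 sets, with naive mice 1-4 and mice 1 and 2 of each injury group in 1 set, and naive mice 5 and 6 and mice 3 and 4 of each injury group in the other.

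Reads assigned to genes ranged from 21959030 to 44493319 per whole DRG library (median 33818162.5). In sorted neurons they ranged from 1494217 to 49015375 per well and from 30518187 to 83599972 per mouse (median 50678522). Levels are given as CPM, read counts scaled to sequencing depth with TMM, and levels of different genes are compared per kilobase of exon unless CPM is named. Whole DRG and sorted neurons differ in strain, dissociation and library kit and were normalized separately, so no test was made between them.

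Potassium channels let potassium leave the cell and so hold the resting potential, end the action potential and limit repetitive firing. Voltage-gated channels are tetramers of pore-forming subunits, whose surface level and gating depend on auxiliary subunits and on silent subunits that form no channel alone, while K2P channels pass a background leak and inward rectifiers hold the membrane near the potassium equilibrium. In DRG neurons these channels set the firing threshold, and classes of sensory neurons differ in which of them they use.

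The wells of sorted neurons were of 2 kinds. In 20 of 66 wells, 9 glia genes, the most abundant of which by CPM was Pmp22, took 3.34% to 14.3% of the reads (median 7.64%), and in the other 46 wells they took 0.337% to 1.6% (median 0.652%). Wells above 2% are called glia-rich here, and they came from 14 of the 22 mice, with 6 of 18 naive wells, 3 of 12 in SNI 1d, 4 of 12 in SNI 3d, 3 of 12 in SCI 1d and 4 of 12 in SCI 3d. In glia-rich wells the 8 neuron markers took 0.00877% to 2.03% of the reads (median 0.0475%), against 1.36% to 4.39% in the other wells (median 3.46%). These ranges overlap, since wells a and b of SNI 3d mouse 3 are glia-rich and had 2.03% and 1.75%, more than the 1.36% in the well of naive mouse 5 that is not. The potassium channel genes took a median of 0.0738% of the reads in glia-rich wells and 0.263% in the others, and 34 against 51 members had a read in the median well. SCI 3d mouse 3 and SNI 3d mouse 3 had glia-rich wells only. Markers of other cell types were found in some of these wells. The 4 fibroblast markers (most abundant by CPM Dcn) took 3.94%, 5.57% and 2.92% of the reads in the wells of SCI 3d mouse 3, of which well b had more fibroblast than glia reads (3.34%), 1.37% and 1.84% in the glia-rich wells of naive mouse 5, and at most 0.192% in any other well. The 5 red blood cell markers (most abundant in naive mice by CPM Hbb-bs) took 1.41% in well c of naive mouse 1, and the 5 macrophage markers at most 0.161% in any well. Naive mouse 5 stood apart in another way: once its 2 glia-rich wells were left out, the remaining well had 32806 CPM on 6 nociceptor markers (most abundant by CPM Calca), against 1.88 to 8465 CPM in the other naive mice, and 846 CPM on 6 large-fibre markers. Results in sorted neurons are therefore given for all wells, without the glia-rich wells, and without both the glia-rich wells and naive mouse 5.

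In uninjured whole DRG the members ranged from 279 CPM per kb of exon for Kcnab2 to 0.0448 for Kcnj15, with a median of 4.44. Of the 83 members, 65 had at least 1 CPM per kb, and the 5 highest held 47.7% of the summed level. Auxiliary subunits took the largest family share (39.3% of the summed CPM per kb), followed by Kv1 (14.4%), silent modifiers (10.3%) and K2P channels (8.29%). The EAG, ERG and ELK genes (6.11%), the calcium- and sodium-activated group (4.43%), inward rectifiers (4.37%), Kv4 (3.78%), Kv2 (3.26%), Kv7 (2.88%) and Kv3 (2.87%) took smaller shares. In bulk tissue a lower level can come from fewer cells of a type or from less RNA per cell, and these cannot be told apart.

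Among pore-forming subunits the highest level per kb was that of Kcna1, a Kv1 subunit of axonal low-threshold channels, at 459, 363, 382 and 387 CPM in the 4 uninjured mice (83.2 CPM per kb). Its usual partner Kcna2 had 620, 544, 576 and 598 CPM, which came to 49.1 CPM per kb because its exons are longer. The highest Kv2 gene, Kcnb2, encodes a delayed rectifier subunit and had 330.3, 287, 319 and 337 CPM. The 4 mice lay close together for Kcna2 and Kcnb2, and mouse 1 was the highest for Kcna1. Kcnc4, which encodes a fast Kv3 subunit, had 54.4, 37.2, 38.8 and 40.3 CPM, with uninjured mouse 1 above the others. Kcnd1, the highest of the Kv4 genes that carry A-type current, had 129, 134, 129.6 and 126 CPM. The spread between mice was small for Kcnd1. Kcnh2, the highest ERG gene, had 150.4, 123, 118 and 121 CPM. Kcnt1, which encodes a sodium-activated channel, had 214, 191, 176 and 178 CPM. Kcnj12, the highest inward rectifier, had 74.5, 56.7, 54.4 and 57.5 CPM. In these 3 genes too uninjured mouse 1 lay above the other 3 mice. That mouse had the highest summed level of all members, 7087 CPM, against a median of 6384 over the 4 mice. Its share of reads on large-fibre markers was the highest too, 0.491% against 0.374% to 0.394% in the other uninjured mice. After SCI, mouse 3 stood apart in the same way, with 0.513% against 0.373% to 0.382%. The part of these markers in the channel levels was not tested.

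Kcns1, the highest silent modifier (54.9 CPM per kb), and Kcnk1, the highest K2P gene (58.6 CPM per kb), are described with the response to SCI. Kcnab2, whose product is a cytoplasmic beta subunit of Kv1 channels, had 1717, 1546, 1468 and 1500.4 CPM. Among the other auxiliary genes, Kcnip3 (70.7 CPM per kb, chosen after its values were seen), Kcnip2 (34.9) and Kcnip4 (31.8) encode calcium-binding subunits of Kv4 channels. Kcnrg was low, at 0.379 CPM per kb.

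In naive sorted neurons, over all wells, the median member had 0.979 CPM per kb, 41 of 83 members had at least 1, and 6 had no read in any of the 6 naive mice. The highest levels were those of Kcnk1 (61.9 CPM per kb), Kcnab2 (57.7), Kcna1 (48.7), Kcnip4 (45.2) and Kcnmb1 (39.2), which encodes the beta subunit of large-conductance calcium-activated channels. Without the glia-rich wells the median was 1.21 CPM per kb, 45 members had at least 1, and 8 had no read in any naive mouse. Those 8, listed after their values were seen, were Kcna3, Kcne1l, Kcnf1, Kcng2, Kcnj15, Kcnj8, Kcnk6 and Kcnk9. Auxiliary subunits then took 56.8% of the summed level, Kv1 10.2%, K2P channels 9.73% and silent modifiers 4.61%. Kcnab2 came highest at 76.5 CPM per kb.

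Some of these levels rested on few mice or on glia-rich wells. Kcnmb1 had 0.397 to 1544 CPM in the naive mice without glia-rich wells (median 55.8), and the highest value was that of naive mouse 5. Its mean of 70.7 CPM per kb was therefore set by that mouse, and this mean is part of the auxiliary share given above. Kcna1 had a median of 111 CPM over the 46 other wells and 191 CPM over the 20 glia-rich wells, so its level in the all-wells sums was raised by the glia-rich wells. Kcnk1 likewise had a median of 69.9 CPM over the other wells and 109 CPM over the glia-rich wells, and in naive mouse 5 it had 249 CPM over all wells and 14.6 CPM without the glia-rich wells. Most members showed the opposite, since 70 of 83 had a higher mean in the other wells and 12 a higher mean in the glia-rich wells. Kcnj16, an inward rectifier subunit, had 222 CPM in SNI 3d mouse 3, which had glia-rich wells only, and 0 to 4.99 CPM in the other 21 mice. Its partner Kcnj10, chosen after its values were seen, had 233 CPM in the same mouse and 0 to 61.9 in the others. Kcnj13, another inward rectifier chosen in the same way, reached 205 CPM in SCI 3d mouse 3, the mouse with the most fibroblast reads, and at most 21.3 CPM elsewhere. Exons of the protein-coding gene Gigyf2 on the other strand overlap 49.1% of the Kcnj13 exon bases, so part of these reads cannot be assigned with certainty.

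**Figure D1:**
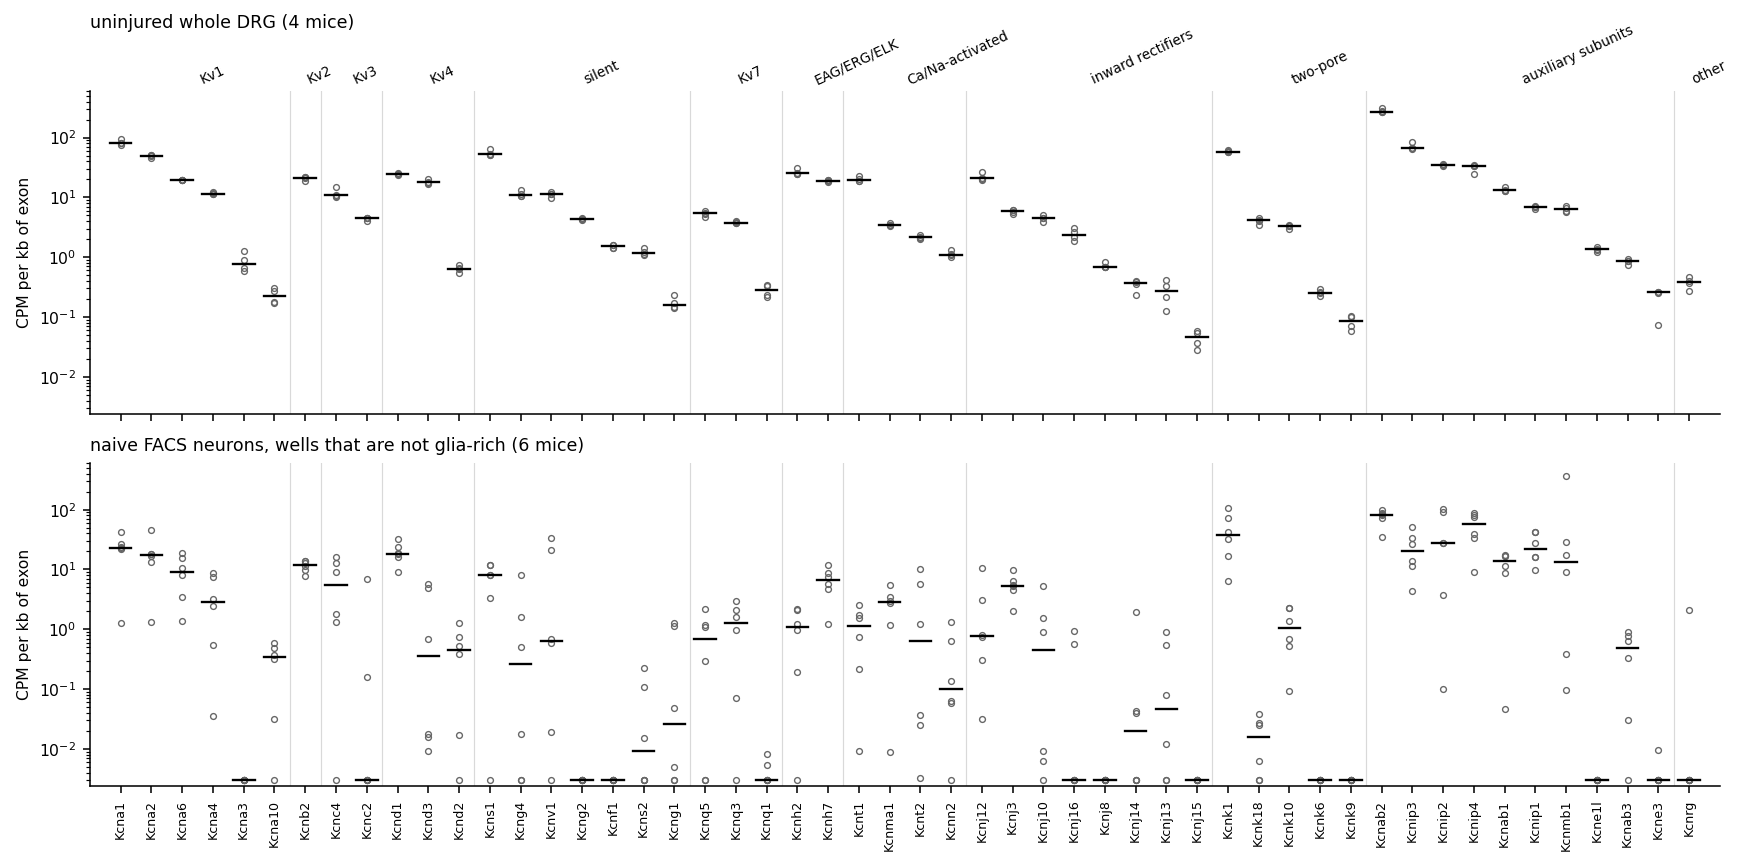
Level of the 52 members named in this text in CPM per kb of exon (log axis), by family, in uninjured whole DRG (top, 4 mice) and in naive sorted neurons without glia-rich wells (bottom, 6 mice). Points are mice and bars are medians, and Kcnab2 is the highest member by mean level in each panel (279 and 76.5 CPM per kb).

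Over the 46 wells that were not glia-rich, 50 members had enough reads for their CPM to be ranked against the summed nociceptor markers. The wells come from all 5 groups, pooled, and share mice and a library kit, so the rank correlations are a description only. They lay above 0 for 27 members, above 0.5 for 5 and below -0.5 for none. Those above 0.5 included Kcnmb1 (0.845), the silent modifier Kcnv1 (0.806), the sodium-activated channel gene Kcnt2 (0.805) and the Kv4 gene Kcnd3 (0.651), with Kcnt2 and Kcnd3 chosen after their values were seen. The Kv1 gene Kcna4 had 0.497. Against the large-fibre markers, the correlations lay above 0 for 28 members, above 0.5 for 7 and below -0.5 for 1 (Kcnip3, -0.504). Kcnk1 was the highest (0.741), and Kcns1 (0.634) and Kcnip2 (0.607) were among the 7.

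The comparison of whole DRG 1d after SCI with uninjured DRG asked whether a central lesion alters the channel genes in the ganglion. A gene is called where its p from edgeR's quasi-likelihood test, adjusted by Benjamini-Hochberg over all genes tested, was under 0.1. Of 83 members, all of which were tested, 4 were called (4.82%), against 408 of 17616 genes tested (2.32%). All 4 were lower after SCI, against 165 genes called lower (0.937% of the genes tested). The 4 were the K2P genes Kcnk1 and Kcnk10, the silent modifier Kcns1 and the Kv4 gene Kcnd2, and only Kcnk1 kept its call whichever of the 8 libraries was left out.

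Kcnk1 (ENSMUSG00000033998.9, chromosome 8, 125995170-126030685, GRCm38) encodes a weakly conducting leak channel. It had 127, 128, 132 and 136 CPM in the uninjured mice and 97.8, 107, 89.4 and 98.5 CPM in the SCI mice. The groups did not overlap, with all SCI mice lower. Its level fell by 0.42 on the log2 scale (SE 0.067, p 8.4e-05, adjusted p 0.0225). With a single library left out the log2 fold change ranged from -0.46 to -0.37, and the gene was called each time. Exons of the predicted gene Gm45875 overlap 8.01% of its exon bases, and since the strand setting of the counts is not stated, such reads cannot be assigned with certainty.

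Kcnk10 (ENSMUSG00000033854.10, chromosome 12, 98429437-98578310) encodes a leak channel opened by membrane stretch and lipids. It had 30.8, 28.7, 29.0 and 26.4 CPM in the uninjured mice and 23.1, 20.2, 22.6 and 23.7 CPM after SCI. The groups did not overlap, with uninjured mouse 4 and SCI mouse 4 the closest. Its level fell by 0.36 on the log2 scale (SE 0.079, p 0.00103, adjusted p 0.0674). The call was lost without SCI mouse 1 (-0.36, adjusted p 0.165), SCI mouse 2 (-0.31, 0.182), uninjured mouse 2 (-0.36, 0.196), uninjured mouse 3 (-0.35, 0.191) or uninjured mouse 4 (-0.40, 0.113).

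Kcns1 (ENSMUSG00000040164.3, chromosome 2, 164163619-164171113) encodes a silent subunit that joins Kv2 channels and alters their gating. It had 175, 145, 139 and 136 CPM in the uninjured mice and 108, 112, 108 and 112 CPM after SCI. The SCI mice lay close together below all uninjured mice, and uninjured mouse 1 was the highest. Its level fell by 0.44 on the log2 scale (SE 0.082, p 2.96e-04, adjusted p 0.0378). The call was lost without SCI mouse 1 (-0.42, adjusted p 0.126), SCI mouse 2 (-0.44, 0.106) or uninjured mouse 2 (-0.45, 0.119).

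Kcnd2 (ENSMUSG00000060882.5, chromosome 6, 21215503-21729805) encodes a Kv4 subunit of A-type current. It had the lowest level of the 4 per kb (0.645 CPM per kb), with 3.84, 2.84, 3.37 and 3.25 CPM in the uninjured mice and 1.95, 2.10, 1.99 and 2.61 CPM after SCI. The groups did not overlap, although SCI mouse 4 came close to uninjured mouse 2. Its level fell by 0.62 on the log2 scale (SE 0.146, p 0.00156, adjusted p 0.0808). With a library left out, the call held only without SCI mouse 4 (-0.71, adjusted p 0.0751). It was lost without SCI mouse 1 (-0.57, 0.225), 2 (-0.61, 0.199) or 3 (-0.57, 0.124), and without uninjured mouse 1 (-0.55, 0.119), 2 (-0.69, 0.135), 3 (-0.61, 0.213) or 4 (-0.63, 0.184).

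The number of members called was 4 over all 8 libraries and ranged from 1 to 5 with a library left out, and the share of all genes called moved as well. It was 1 (Kcnk1) without SCI mouse 1, SCI mouse 2 or uninjured mouse 2 (0.843%, 0.958% and 0.599% of all genes), and 2 (Kcnk1 and Kcns1) without uninjured mouse 3 or 4 (0.592% and 0.823%). Without SCI mouse 3 it was 5 (3.67%), as Kcna6 and Kcnip1 were called and Kcnd2 was not, and without uninjured mouse 1 it was 4 (2.72%), with Kcnj16 in place of Kcnd2. Kcna6, a Kv1 gene, falls outside the rule for naming genes and was chosen after its values were seen; the predicted gene Gm26673 overlaps 39.6% of its exon bases on the other strand.

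At an unadjusted p under 0.05, 21 of 83 members differed (25.3%), 17 of them lower, against 14.6% of all genes tested. The SCI mice all lay below the uninjured mice for 11 members against 6.07% of all genes, and above for 3 members against 4.92%. The median log2 fold change of the members was -0.07 and that of all genes 0.01, and 51 of 83 members lay below 0 (61.45%) against 46.9% of all genes. By family, the median log2 fold change was -0.23 over 3 Kv4 genes, -0.19 over 4 Kv3 genes, -0.18 over 13 inward rectifiers, -0.17 over 11 K2P genes, -0.11 over 7 Kv1 genes and 0.04 over 13 auxiliary subunits.

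The 3 members with the smallest p among those with higher values after SCI were not called. Kcnip1, a calcium-binding Kv4 subunit, had 39.6, 43.4, 44.5 and 43.1 CPM in the uninjured mice and 48.7, 51.8, 47.1 and 51.8 CPM after SCI. The groups did not overlap, and its log2 fold change was 0.22 (adjusted p 0.155). The silent modifier Kcns2 had 8.09, 6.30, 6.12 and 6.95 CPM against 7.74, 8.45, 8.41 and 9.53 CPM after SCI, groups that overlapped through uninjured mouse 1 (0.32, adjusted p 0.237). Kcnab3, a beta subunit gene, had 2.48, 2.12, 2.69 and 2.44 CPM against 2.86, 3.21, 3.08 and 2.88 CPM, without overlap (0.31, adjusted p 0.282). By DESeq2, 6 members were called (5.27% of all genes), the 4 above with Kcnip1 (higher) and the inward rectifier gene Kcnj16 (lower).

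**Figure D2:**
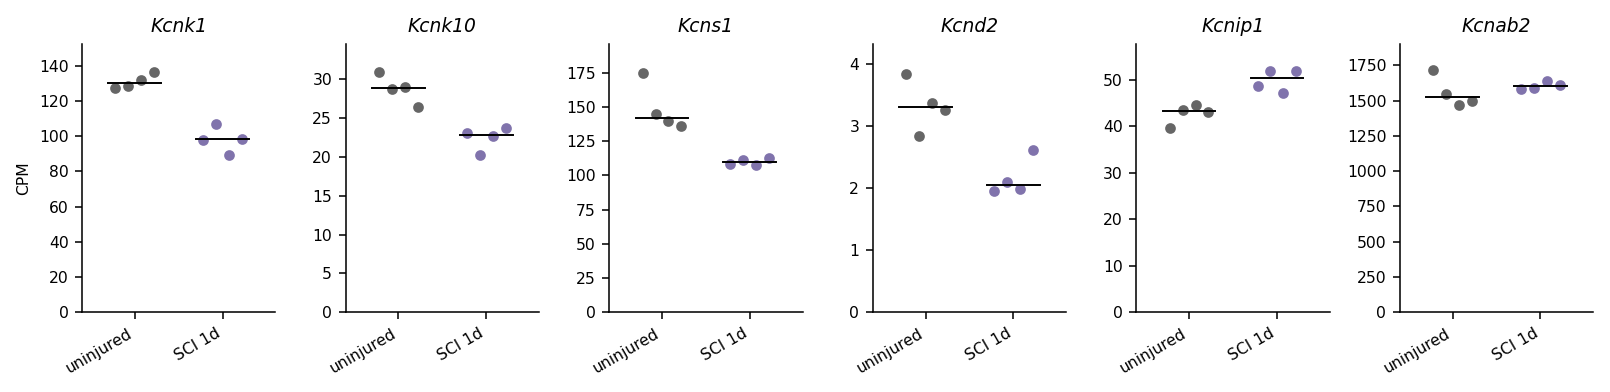
CPM in whole DRG of 4 uninjured mice and 4 mice 1d after SCI for the 4 called genes (Kcnk1, Kcnk10, Kcns1, Kcnd2), for Kcnip1 and for Kcnab2. Points are mice and bars are medians, and the called genes show no overlap, such as 127-136 against 89.4-107 CPM for Kcnk1.

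Marker lists of other cell types were read beside these results. In whole DRG 4 of 5 red blood cell markers were called higher after SCI (median log2 fold change 1.62), 1 of 9 glia markers was called higher, 1 of 6 nociceptor markers and 1 of 5 macrophage markers were called lower, and no marker was called among 8 neuron, 6 large-fibre, 4 fibroblast and 3 endothelium genes or the 3 of 4 neutrophil genes that were tested. The neuron markers, the most abundant of which by CPM was Nefl, summed to 18213-20328 CPM in the uninjured mice and 17730-18957 CPM after SCI, and none of them was at 0. The part of these cell types in the channel results was not tested. Among the genes of channel partners (22 scaffold, adhesion and accessory genes and the 4 Hcn pacemaker channel genes), 24 were tested and 0 were called by edgeR, with 3 at an unadjusted p under 0.05 against 14.6% of all genes (Abcc9, Lgi2 and Dlg2, chosen after their values were seen).

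For the 4 called genes the promoter is shown, because they moved in the same direction. RefSeq promoter windows of 300 bases on GRCm38.p6 were matched for 60 of 83 members, with 84 windows in all. The windows were searched on both strands for a GC box (GGGCGG), a cAMP response element (TGACGTCA), an AP-1 site (TGANTCA) and an E-box (CACGTG). The GC box was in 40 of 84 member windows (47.6%) and in 35.7% of all 32851 windows, the AP-1 site in 4 (4.76%) and 7.81%, the E-box in 6 (7.14%) and 7.15%, and the cAMP response element in 0 of 84 and 1.79%. Median GC content was 58.2% over member windows and 52.7% over all. Of the 4 genes, Kcnk1 (chr8:125994852-125995151, plus strand) held none of these motifs, Kcnd2 (chr6:21215096-21215395, plus strand) and Kcnk10 (chr12:98578164-98578463, minus strand, the window nearest the annotated start) held 1 GC box each, and Kcns1 (chr2:164171064-164171363, minus strand) held 2. The windows of Kcnk10 and Kcns1 span the gene start printed above, whereas those of Kcnk1 and Kcnd2 end before it. The sequences run 5′ to 3′ with GC boxes, on either strand, in capitals.
Kcnk1: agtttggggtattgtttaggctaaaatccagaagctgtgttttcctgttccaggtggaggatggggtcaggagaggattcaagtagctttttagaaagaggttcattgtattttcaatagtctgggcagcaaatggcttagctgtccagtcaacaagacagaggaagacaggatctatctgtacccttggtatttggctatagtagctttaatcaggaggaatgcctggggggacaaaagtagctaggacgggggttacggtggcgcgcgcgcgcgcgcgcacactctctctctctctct
Kcnk10: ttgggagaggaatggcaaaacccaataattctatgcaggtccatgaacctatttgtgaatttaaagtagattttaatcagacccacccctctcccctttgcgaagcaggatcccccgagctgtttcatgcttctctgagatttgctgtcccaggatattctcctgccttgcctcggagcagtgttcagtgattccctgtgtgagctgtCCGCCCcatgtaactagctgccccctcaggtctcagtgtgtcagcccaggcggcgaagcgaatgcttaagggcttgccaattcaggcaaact
Kcns1: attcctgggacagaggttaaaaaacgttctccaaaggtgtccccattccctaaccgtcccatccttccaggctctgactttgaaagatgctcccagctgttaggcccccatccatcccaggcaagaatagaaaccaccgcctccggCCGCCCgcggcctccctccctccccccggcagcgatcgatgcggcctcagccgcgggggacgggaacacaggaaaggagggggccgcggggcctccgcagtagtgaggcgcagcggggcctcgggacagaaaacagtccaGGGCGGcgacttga
Kcnd2: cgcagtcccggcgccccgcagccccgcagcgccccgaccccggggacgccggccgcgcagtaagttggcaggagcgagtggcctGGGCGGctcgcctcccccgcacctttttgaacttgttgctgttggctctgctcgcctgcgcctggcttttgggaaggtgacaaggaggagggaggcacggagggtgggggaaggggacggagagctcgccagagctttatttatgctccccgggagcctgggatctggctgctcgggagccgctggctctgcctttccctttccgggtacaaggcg

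In sorted neurons, 4 comparisons set an injury group against the naive mice, and the other 2 set SNI against SCI at the same time. All 22 mice were in 1 fit with 2 RUVr factors, which absorb unwanted variation, so the fold changes are adjusted values and not ratios of the CPM given. The 4 comparisons with naive share the same 6 naive mice. The spread between mice was large, with a biological coefficient of variation of 1.2 over all wells against 0.133 in whole DRG. Of 83 members, 73 had at least 20 reads in at least 1 mouse and were tested, and the other 10 were not.

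At 1d after SNI, over all wells, 1 of 73 members was called (Kcnab1, higher), against 0.689% of 23507 genes tested. At an unadjusted p under 0.05 there were 18 members, 10 higher and 8 lower, against 15% of all genes, with 18 (11 higher and 7 lower) without the glia-rich wells, against 22.8%, and 14 (6 higher and 8 lower) without naive mouse 5 as well, against 19%. With the glia-rich wells left out, 10 members were called, 7 higher and 3 lower, against 8.19% of 22620 genes. Without naive mouse 5 as well, 9 of 72 members were called, 3 higher and 6 lower, against 6.35% of 22581 genes. Kcnj3 had the smallest p of all members in both of the latter fits.

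Kcnab1 (ENSMUSG00000027827.16, chromosome 3, 65109384-65378223) encodes a beta subunit that speeds the inactivation of Kv1 channels. Over all wells it had 0.503 to 137 CPM in the naive mice (median 77.3) and 185, 75.9, 195 and 149.9 CPM in the SNI 1d mice. The groups overlapped, since SNI 1d mouse 2 lay within the naive range, and naive mouse 5 lay far below the other naive mice. The log2 fold change was 1.97 (SE 0.463, p 3.99e-04, adjusted p 0.0784). Without naive mouse 5 it was 0.77 (adjusted p 0.473), so its size rested on that mouse. The call was also lost without naive mouse 2 (2.16, adjusted p 0.102) or 4 (2.08, 0.108), SNI 1d mouse 1 (1.91, 0.143), 3 (1.68, 0.166) or 4 (2.02, 0.130), SNI 3d mouse 1 (1.93, 0.102), 2 (1.96, 0.107) or 4 (1.89, 0.112), SCI 1d mouse 3 (1.81, 0.118) or 4 (1.80, 0.118), and SCI 3d mouse 4 (1.81, 0.112). It was lost as well with the set of the titles as a covariate in place of RUVr (1.28, adjusted p 0.642), with no RUVr factor (0.98, 0.713) and with residuals not centred (1.36, 0.694), and over all alternatives the adjusted p ranged from 0.00165 to 0.797. Without the glia-rich wells the gene was called (1.82, adjusted p 0.0518), and without naive mouse 5 as well it was not (0.75, 0.320).

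The number of members called 1d after SNI moved with single mice, as did the share of all genes. It was 6 without SCI 3d mouse 3 (1.91% of all genes), 5 without SNI 3d mouse 3 (2.55%), and 2 without SCI 1d mouse 1, SCI 1d mouse 4, SCI 3d mouse 1 or naive mouse 6 (0.611% to 0.958%). It was 0 without SCI 1d mouse 3, SCI 3d mouse 4, SNI 1d mouse 1, 3 or 4, SNI 3d mouse 2, or naive mouse 2, 4 or 5 (0.129% to 0.883%). By DESeq2 10 members were called, against 6.64% of all genes.

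Kcnj3 (ENSMUSG00000026824.11, chromosome 2, 55435970-55598145) encodes a G-protein-gated inward rectifier subunit. Outside the glia-rich wells it had 10.4 to 50.3 CPM in the naive mice (median 27.8) and 2.37, 3.01, 3.22 and 9.10 CPM in the SNI 1d mice. Every SNI 1d mouse lay below every naive mouse, and naive mouse 5 was the lowest naive mouse. The level fell by 2.68 on the log2 scale (SE 0.438, p 1.11e-05, adjusted p 0.00644), and by 2.87 without naive mouse 5 (adjusted p 0.00434). Over all wells the naive mice had 5.46 to 42.4 CPM and the SNI 1d mice 1.84, 2.35, 2.24 and 7.99 CPM, which overlapped through naive mouse 5, and the gene was not called (-3.16, adjusted p 0.175). The predicted gene Gm26794 on the opposite strand overlaps 31.1% of its exon bases, so part of these reads cannot be assigned with certainty.

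Genes of other pore-forming families were also called lower without the glia-rich wells. Kcnd1, a Kv4 gene, had 48.8 to 172 CPM in the naive mice (median 96.6) and 53.6, 72.2, 32.3 and 41.0 CPM in the SNI 1d mice. Only naive mouse 5 fell within the SNI range, and the log2 fold change was -1.12 (adjusted p 0.0362), or -1.24 without that mouse (0.0327). Kcnh7, an ERG gene chosen after its values were seen, had 18.7 to 178 CPM in the naive mice (median 99.98) and 64.0, 55.5, 48.5 and 33.8 CPM after SNI. Again only naive mouse 5 lay at or below the SNI mice, and the log2 fold change was -0.91 (adjusted p 0.094), or -1.20 without that mouse (0.0317).

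Other genes were called lower only when naive mouse 5 was left out too. They were Kcna2 (-1.64, adjusted p 0.0784), Kcnab2 (-0.48, 0.072) and the Kv1 gene Kcna10 (0.0719), the last chosen after its values were seen. Kcna2 had 159, 213, 219, 198 and 542 CPM in the other naive mice and 56.4, 174, 46.1 and 51.4 CPM in the SNI 1d mice. SNI 1d mouse 2 was the only SNI mouse to reach the naive range. Kcna10 had no read in any SNI 1d mouse and 168 reads over the naive mice with all wells, which makes it at least 33.7-fold higher in naive mice against a floor of 3 reads over the group. Only naive mice reached the 20 reads that let Kcna10 be tested, so its call and this fold are a description only.

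Higher levels 1d after SNI were found for Kcnq3 and for a gene of the large-conductance calcium-activated channel, and rested in part on naive mouse 5. Kcnq3, an M-current subunit, had 0 to 44.2 CPM in the naive mice without glia-rich wells (median 19.0) and 92.5, 58.2, 60.9 and 29.8 CPM in the SNI 1d mice. The groups overlapped through SNI 1d mouse 4. The log2 fold change was 2.77 (adjusted p 0.0142), and 1.89 without naive mouse 5 (0.0241), so the call held in both. Kcnma1, the pore-forming gene of the large-conductance channel, had 0.151 to 92.3 CPM in the naive mice (median 49.2) and 103, 93.1, 159 and 77.9 CPM after SNI. Naive mouse 5 was far below the rest, and the gene was called with that mouse (2.14, adjusted p 0.0195) and not without it. Kcnab1 and the Kv3 gene Kcnc4 (2.22, adjusted p 0.056) likewise lost their calls without naive mouse 5.

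Another 2 genes called higher had almost no read in naive mice. Kcnq1, a Kv7 gene of slow delayed rectifiers, had 0 to 0.0334 CPM in the naive mice without glia-rich wells and 5.09, 0.905, 0 and 5.76 CPM 1d after SNI, with an adjusted p of 0.0459. SNI 1d mouse 3 had no read and the other 3 mice lay above every naive mouse. Only SNI mice reached the 20 reads that let Kcnq1 be tested, so its call is a description only. Kcng2, a silent modifier, had no read in any naive mouse and 128 reads in the SNI 1d mice over all wells, at least 70.9-fold more against the floor of 3 reads. Almost all of these reads came from SNI 1d mouse 4 (3.56 CPM), while mouse 3 had 0.0515 CPM and mice 1 and 2 had none. Kcng2 was not called over all wells. No naive mouse reached the 20 reads that let a gene be tested, so the Kcng2 call and this fold are a description only. Floors of this kind cover counting error only.

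**Figure D3:**
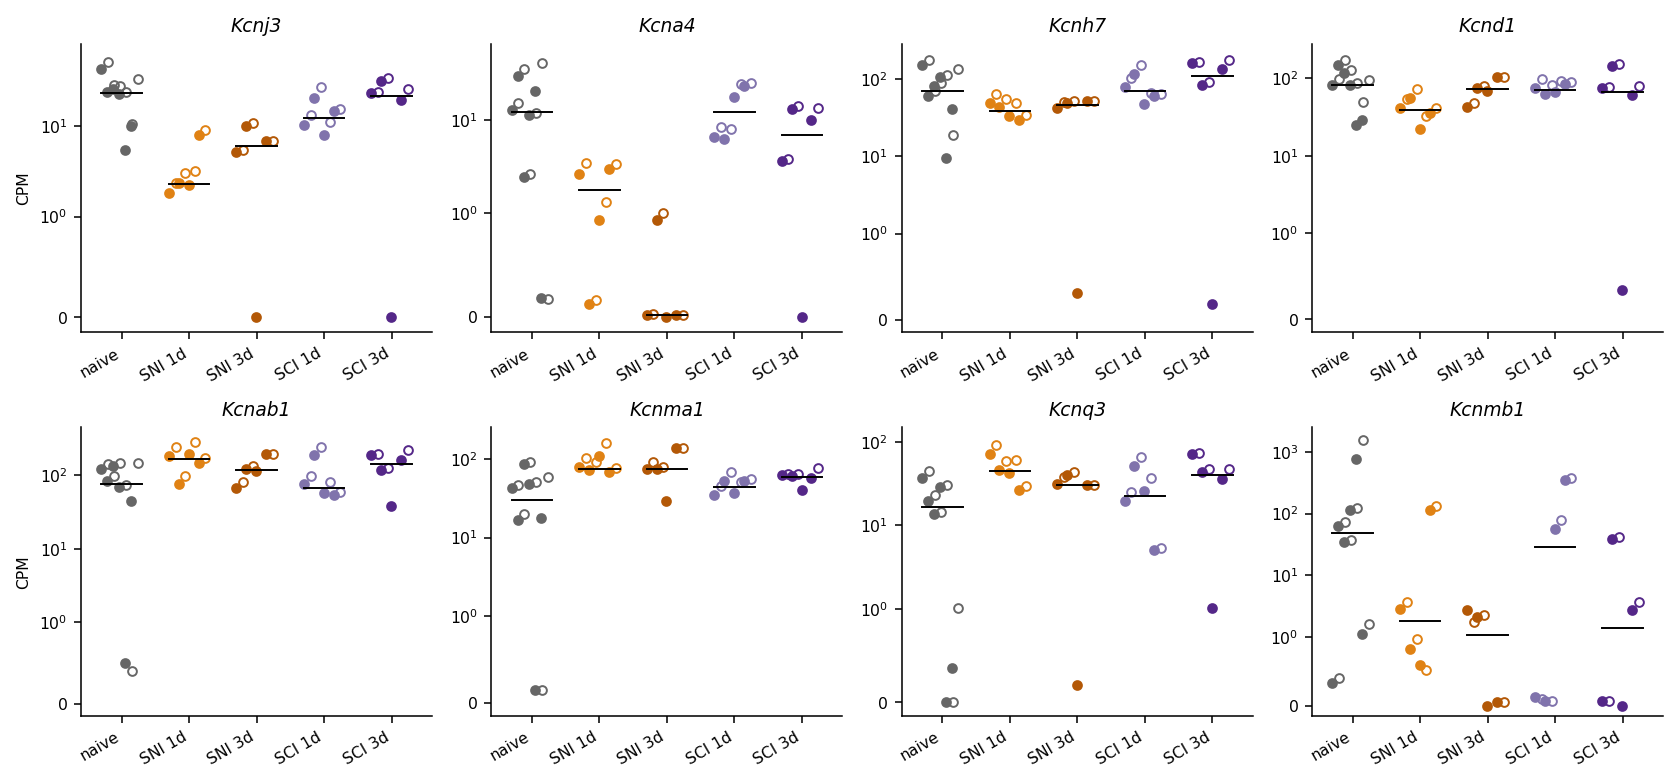
CPM of Kcnj3, Kcna4, Kcnh7, Kcnd1, Kcnab1, Kcnma1, Kcnq3 and Kcnmb1 in sorted neurons of the 5 groups (axis linear below 1 and logarithmic above). Filled points are mice with all wells, open points are mice without their glia-rich wells and bars are medians over all wells, and Kcnj3 without glia-rich wells had 2.37-9.10 CPM 1d after SNI against 10.4-50.3 in naive mice.

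At 3d after SNI, over all wells, 1 of 73 members was called (Kcna4, lower), against 0.706% of genes. At an unadjusted p under 0.05 there were 22 members, 20 of them lower, against 12.7% of all genes, with 15 (11 higher and 4 lower) without the glia-rich wells, against 23.1%, and 15 (7 higher and 8 lower) without naive mouse 5 as well, against 20%. When the glia-rich wells were left out, 5 members were called, 3 higher and 2 lower, against 7.58% of genes. Without naive mouse 5 as well there were 3, all lower, against 5.95%. DESeq2 called 18 members over all wells, against 9.51% of all genes.

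Kcna4 (ENSMUSG00000042604.5, chromosome 2, 107290639-107298502) encodes a Kv1 subunit that inactivates rapidly. Over all wells it had 0.182 to 30.1 CPM in the naive mice (median 12.2) and 0.0206, 0.938, 0 and 0.0145 CPM in the SNI 3d mice. The groups overlapped, since SNI 3d mouse 2 lay above naive mouse 6, while the other 5 naive mice lay above all SNI 3d mice. The level fell by 7.45 on the log2 scale (SE 1.67, p 2.43e-04, adjusted p 0.0783). It fell by 4.70 without the glia-rich wells (adjusted p 0.0655), and by 4.0 without naive mouse 5 as well (0.0929). The call was lost without naive mouse 1 (-7.20, adjusted p 0.124) or 2 (-6.78, 0.149), SNI 3d mouse 1 (-6.95, 0.176), 3 (-5.18, 0.104) or 4 (-6.98, 0.154), SNI 1d mouse 2 (-7.47, 0.103) or 4 (-7.42, 0.104), and SCI 1d mouse 3 (-7.10, 0.102) or 4 (-6.93, 0.113). Without SNI 3d mouse 2 the log2 fold change was -11.17. It was lost too with the set of the titles as a covariate in place of RUVr (-5.84, adjusted p 0.433), with no RUVr factor (-5.72, 0.369) and with residuals not centred (-6.82, 0.328), and over all alternatives the adjusted p ranged from 1.4e-07 to 0.604. Kcna4 had a rank correlation of 0.497 with the 6 nociceptor markers over wells of all 5 groups pooled, so differences between groups enter that value. These markers summed to 1.93-16438 CPM in the naive mice and 1.76-159 CPM in the SNI 3d mice, with 1 of the 6 at 0 in every SNI 3d mouse. None of the 6 was called, and their part in the Kcna4 result was not tested.

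The count of members called 3d after SNI was 10 without naive mouse 5 (3.76% of all genes), 9 without naive mouse 6 (3.82%), 3 without SCI 3d mouse 3 (1.14%) or SNI 3d mouse 2 (0.672%), and 2 without SNI 1d mouse 3 (0.683%) or SNI 3d mouse 3 (2.54%). It was 0 without SCI 1d mouse 3 or 4, SNI 1d mouse 2 or 4, SNI 3d mouse 1 or 4, or naive mouse 1 or 2 (0.0386% to 0.35%).

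Kcnj3 was called lower 3d after SNI when the glia-rich wells were left out, which removes SNI 3d mouse 3. The 3 remaining SNI mice had 5.44, 10.7 and 6.79 CPM, and only naive mouse 5, at 10.4 CPM, lay within their range. The log2 fold change was -1.93 (adjusted p 0.0417), or -2.08 without naive mouse 5 (0.0358). Kcnh7 had 50.9, 52.6 and 51.4 CPM in the same 3 mice, below every naive mouse other than mouse 5. By edgeR it was called only without that mouse (-1.14, adjusted p 0.0669).

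The genes called higher 3d after SNI without the glia-rich wells included Kcnma1 (1.95, adjusted p 0.0433) and Kcnq3 (1.91, 0.0807). Kcnma1 had 91.4, 80.6 and 139.7 CPM in the SNI mice, a range that overlapped that of the naive mice (0.151-92.3). Neither gene was called without naive mouse 5. Members that had small p over all wells and were not called included the sodium-activated channel gene Kcnt1 (-4.63, adjusted p 0.133), the Kv4 auxiliary gene Kcnip1 (-3.80, 0.133) and Kcnab1 (1.68, 0.133). With a mouse left out these ranged from -7.85 to -2.24 (Kcnt1), -5.12 to -2.21 (Kcnip1) and 0.44 to 1.965 (Kcnab1). Kcnt1 had 0.288, 4.97, 0 and 0.0145 CPM in the SNI 3d mice and 0.0780 to 27.5 in the naive mice, which overlapped. The Kv3 gene Kcnc2 had no read in any SNI 3d mouse and 1062 reads over the naive mice, at least 224-fold more, of which nearly all came from naive mouse 5 (24.9 CPM, with 0.965 in mouse 2 and 0 in the others). Kcnip2 had a fold change of 1.67 that turned to -0.60 without naive mouse 5 and to -0.10 without SNI 3d mouse 4.

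At 1d after SCI, 0 of 73 members were called by edgeR in sorted neurons, against 0.017% of genes. At an unadjusted p under 0.05 there were 12 members, 10 higher and 2 lower, against 12.7% of all genes, and DESeq2 called 2 (5.33% of all genes), Kcnq3 and the K2P gene Kcnk18. Without the glia-rich wells (0.217% of genes called) and without naive mouse 5 as well (0.0709%) no member was called by edgeR, with 12 and 6 members at an unadjusted p under 0.05 against 17.5% and 12% of all genes. Kcnk18 was chosen after its values were seen. Over all wells it had 0.239, 6.99, 0 and 0 CPM in the SCI 1d mice, mostly from mouse 2, and 0 to 0.124 CPM in the naive mice. No naive mouse reached the read minimum for testing, so the Kcnk18 call is a description only.

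Kcnq3 had 19.4, 51.1, 26.0 and 5.05 CPM in the SCI 1d mice and 0 to 37.2 CPM in the naive mice over all wells. The groups overlapped, with only SCI 1d mouse 2 above all naive mice. The log2 fold change of Kcnq3 was 2.07 (adjusted p 0.282), and 1.19 to 2.63 with a mouse left out. Kcng1, a silent modifier, had 0, 0, 0 and 0.0602 CPM in the SCI mice and 0.0186 to 4.84 CPM in the naive mice, of which mice 2 and 4 were far above the rest (-5.83, adjusted p 0.279). The inward rectifier gene Kcnj14 had no read in any SCI 1d mouse and 323 reads over the naive mice, at least 63.4-fold more, and these came mainly from naive mouse 4 (4.91 CPM). Kcnq1 had reads in SCI 1d mouse 2 only (0.451 CPM), and its log2 fold change of 4.01 (adjusted p 0.284) turned to -1.78 without that mouse.

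The 4 genes called in whole DRG after SCI had no call in sorted neurons 1d after SCI. Over all wells Kcnk1 had 191.5, 129, 86.5 and 27.8 CPM in the SCI 1d mice and 47.4 to 249 CPM in the naive mice, which overlapped, and the highest naive value was that of mouse 5. Kcns1 had 35.1, 20.5, 6.52 and 4.63 CPM against 0.0252 to 30.6, and Kcnk10 had 1.51, 6.51, 7.79 and 5.72 CPM against 0.503 to 16.9. Kcnd2 had 4.47, 3.90, 0 and 0.0301 CPM against 0.0252 to 5.50. The SCI and naive mice overlapped for each of them, and they did so without the glia-rich wells as well. There Kcnk1 had 162, 110, 30.5 and 29.6 CPM in the SCI 1d mice and 14.6 to 239 CPM in the naive mice. Naive mouse 5 was then the lowest naive mouse for Kcnk1. Whether the response differs between whole DRG and sorted neurons was not tested.

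At 3d after SCI, 0 members were called by edgeR, against 0% of genes over all wells, 0% without the glia-rich wells and 0.00443% without naive mouse 5 as well. At an unadjusted p under 0.05 there were 5 members over all wells, 4 higher and 1 lower, against 9.4% of all genes, and 11 and 6 in the other fits, against 14.6% and 10.6%. DESeq2 called 4 over all wells (5.19% of all genes): Kcnab1, Kcnma1, Kcnq3 and Kcnk18. Kcnab1 had 187, 118, 38.3 and 165 CPM in the SCI 3d mice, and mice 1 and 4 lay above all naive mice (1.53, adjusted p 0.429). Kcnma1 had 63.4, 61.3, 40.7 and 57.9 CPM, all within the naive range of 0.151 to 86.0 (1.92, adjusted p 0.451). Kcnq3 had 70.7, 43.7, 1.04 and 35.8 CPM, and only mice 1 and 2 lay above the naive mice (2.08, adjusted p 0.497). In each of these genes SCI 3d mouse 3, which had glia-rich wells only, was the lowest of its group. Naive mouse 5 was the lowest naive mouse for Kcnab1 (0.503 CPM), Kcnma1 (0.151) and Kcnq3 (0). With a mouse left out, the log2 fold changes ranged from 0.37 to 1.82 (Kcnab1), 0.46 to 2.34 (Kcnma1) and 0.99 to 2.92 (Kcnq3). In the other settings the lowest were 0.63 (Kcnab1), 0.41 (Kcnma1) and 1.19 (Kcnq3). Kcnk18 had 0.0222, 0.627, 0.0690 and 5.02 CPM in the SCI 3d mice, mostly from mouse 4, and 0 to 0.124 CPM in the naive mice. Since no naive mouse reached the read minimum for testing, the Kcnk18 call is a description only. Kcnip1 had 131, 127, 0.0460 and 50.4 CPM against 18.7 to 244 in the naive mice (-2.19, adjusted p 0.511). Its log2 fold change ranged from -2.85 to -0.56 with a mouse left out. Kcnb2 had 234, 210.3, 0.368 and 91.5 CPM, and its fold change of -1.46 turned to 0.10 without the glia-rich wells.

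Compared directly at 1d, SNI and SCI differed in 0 members by edgeR over all wells, against 0% of genes. At an unadjusted p under 0.05 there were 11 members, 10 lower and 1 higher after SNI, against 10.2% of all genes, and DESeq2 called 4 against 4.75% (Kcna2, Kcna4, Kcnn2 and the Kv7 gene Kcnq5, which was chosen after its values were seen). Leaving out the glia-rich wells gave 1 called member, Kcnj3, against 0.889% of genes, and without naive mouse 5 as well there were 2, Kcnj3 and Kcna2, against 2.19%. In these fits 13 (2 higher and 11 lower) and 15 members (4 higher and 11 lower) had an unadjusted p under 0.05, against 13.3% and 14.2% of all genes.

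Kcnj3 without glia-rich wells had 13.3, 26.7, 11.2 and 15.4 CPM in the SCI 1d mice, all above the 4 SNI 1d mice. It was lower after SNI by a log2 fold change of -1.90 (adjusted p 0.084), and of -1.92 without naive mouse 5 (0.0592). Kcna2 had 247, 343, 289 and 211 CPM in the SCI 1d mice without glia-rich wells, all above the SNI 1d mice, of which mouse 2 (174 CPM) was the highest. Of the 3 edgeR fits it was called only in the one without naive mouse 5 (-1.92, adjusted p 0.0932) and not over all wells (-1.74, adjusted p 0.446), where DESeq2 called it. Naive mouse 5 is in neither group, and its part here is through the shared fit. Kcnn2, a small-conductance calcium-activated channel gene, had 0.626, 0.275, 0.0129 and 0.431 CPM after SNI and 3.30, 1.45, 3.73 and 5.37 CPM after SCI. The groups did not overlap, and the gene was not called (-3.98, adjusted p 0.461).

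At 3d the direct comparison gave 0 called members in all 3 fits, against 0% of genes over all wells, 0% without the glia-rich wells and 0% without naive mouse 5 as well. There were 14 members at an unadjusted p under 0.05 over all wells, all lower after SNI, against 8.47% of all genes, with 16 (14 lower and 2 higher, against 7.42%) and 14 (12 lower and 2 higher, against 8.61%) in the other fits. The 6 nociceptor markers had a median log2 fold change of -3.385 over all wells, with none called. Their part in these counts was not tested. DESeq2 called 5 over all wells, against 4.14% of all genes, among them Kcna4, Kcng4, Kcnj13 and Kcnt2, the last 2 chosen after their values were seen. Kcna4 had 3.69, 13.4, 0 and 10.2 CPM in the SCI 3d mice, of which all but mouse 3 lay above the SNI 3d mice (-5.85, adjusted p 0.584). With a mouse left out its log2 fold change ranged from -9.6 to -3.6. Kcne3, an accessory subunit gene, had 82 reads over the SNI 3d mice and none in any SCI 3d mouse, at least 31-fold more, and all were in SNI 3d mice 2 and 4. Only SNI 3d mouse 4 reached the 20 reads that let Kcne3 be tested, so this fold is a description only.

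The summed level of all members is given as a description. Over all wells it was 1496-2732 CPM in naive mice (median 2569), 1463-1945 in SNI 1d (1707), 1220-2381 in SNI 3d (1708), 2096-2808 in SCI 1d (2492) and 1309-2799 in SCI 3d (2297). Without the glia-rich wells it was 2759-3117 CPM in naive mice (median 2864), 1887-2216 in SNI 1d (2155), 1496-2384 in SNI 3d (2294), 2692-3105 in SCI 1d (2920) and 2506-2889 in SCI 3d (2853). Without naive mouse 5 as well the naive median was 2898 CPM, with the same range. The SNI mice then lay below all naive mice at 1d and at 3d, and the SCI mice overlapped the naive mice. This order rests in naive mouse 5 on Kcnmb1, and with Kcnmb1 left out of the sum the naive mice had 1238-3043 CPM, the SNI 1d mice 1887-2215 and the SNI 3d mice 1495-2384, which overlapped. The 6 nociceptor markers moved too, with medians without the glia-rich wells of 1746 CPM in naive mice, 234 in SNI 1d, 15.8 in SNI 3d, 1935 in SCI 1d and 1314 in SCI 3d, and their part in the sum was not tested. In whole DRG the sum was 6299-7087 CPM in uninjured mice and 6051-7020 CPM after SCI, and these overlapped.

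**Figure D4:**
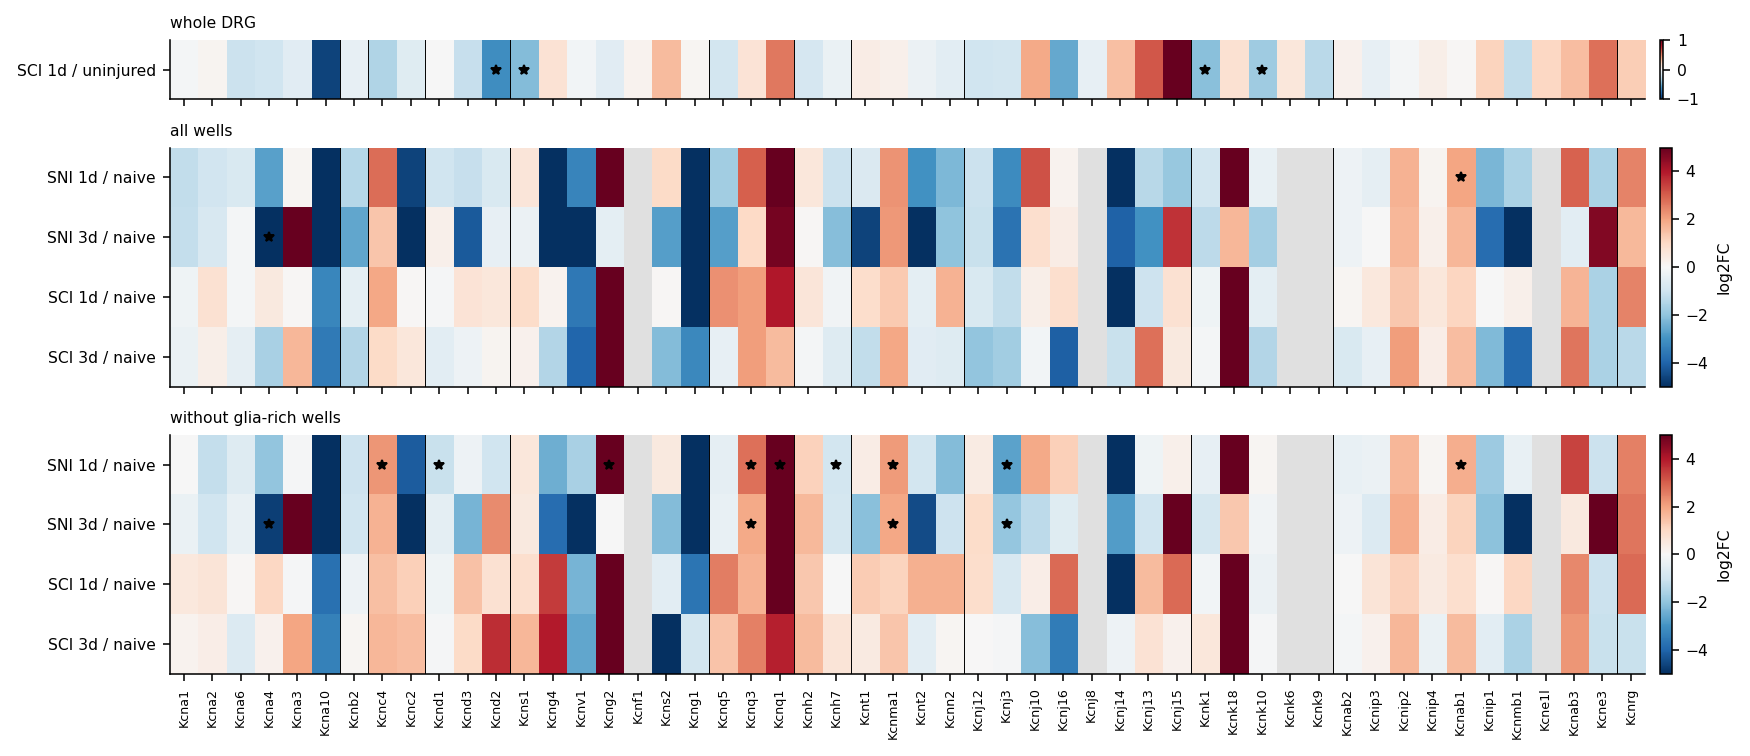
Log2 fold change of the same 52 members in each comparison of an injury with control, by family (whole DRG scale -1 to 1, sorted neurons -5 to 5). Stars mark genes called at an adjusted p under 0.1, of which there are 4 in whole DRG after SCI and 1 each in sorted neurons with all wells 1d and 3d after SNI, and grey cells were not tested.

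Among the channel partners and Hcn genes, 25 were tested in sorted neurons. Over all wells 1 was called, Dlg2, which encodes a scaffold of Kv1 channels and was higher 3d after SNI (2.35, adjusted p 0.0783), against 0.706% of all genes, and 0 were called by edgeR in the other 5 comparisons. Over all wells there were 3 (SNI 1d), 5 (SNI 3d), 2 (SCI 1d), 3 (SCI 3d), 3 (SNI 1d against SCI 1d) and 0 (SNI 3d against SCI 3d) at an unadjusted p under 0.05, against 15%, 12.7%, 12.7%, 9.4%, 10.2% and 8.47% of all genes. Without the glia-rich wells 4 of the 25 were called 1d after SNI, against 8.19% of all genes, with 2 higher, among them Dlg2 (1.88), and 2 lower (Cntnap2 -0.99 and Epb41l3 -0.57), and 1 was called 3d after SNI (Dlg2, higher by 1.73), against 7.58%. Without naive mouse 5 as well Dlg2 was not called at either time (0.71 and 0.69), Cntnap2 (-1.17) and Epb41l3 (-0.70) were called lower 1d after SNI, against 6.35% of all genes, and 1 was called higher (Hcn3, 2.72) and 1 lower (Epb41l3, -0.59) 3d after SNI, against 5.95%. Cntnap2 and Epb41l3 encode proteins that hold Kv1 channels beside the node of Ranvier. Of the marker lists of neurons, glia, nociceptors, large fibres, macrophages, neutrophils, red blood cells, fibroblasts and endothelium, no gene was called in sorted neurons over all wells.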

How the data were processed

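Reads per gene were counted in 8 whole DRG libraries and 66 wells of sorted neurons. The deposited counts are raw reads per Ensembl gene, which the authors made by trimming with Cutadapt and PRINSEQ, aligning to GRCm38 with STAR 2.5.3a and counting with HTSeq 0.6.1; the annotation release and strand setting are not stated. The 5 lines per file that name no gene held 33.1% to 37.0% of reads in whole DRG and 42.6% to 66.9% in wells and were dropped. The 7 tables of the authors, which hold 123 per-sample columns in all beside their own fold changes and p-values, were not used here. Whole DRG after SNI was not used either. The authors removed outlier samples that the labels do not name, and all mice were kept here.

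Counts were fitted with edgeR 4.0.16 (quasi-likelihood, TMM, Benjamini-Hochberg over all genes tested, adjusted p under 0.1) in R 4.3.3 with limma 3.58.1, on genes whose mean count was 10 or more in whole DRG, or that reached 20 reads in 1 or more mice in sorted neurons, wells summed per mouse. The fit for sorted neurons held all 22 mice and 2 RUVr factors, rewritten from deviance residuals centred per gene. The code was tested on simulated data. Alternatives were DESeq2 1.42.0, RLE size factors, other filters, no or uncentred RUVr factors, the set as a covariate, replicate blocks, an adjusted p under 0.05, leaving out each mouse, and leaving out glia-rich wells; leaving out naive mouse 5 with the glia-rich wells was added after seeing the data. Tables, promoters and figures were made with Python 3.11.15 (matplotlib 3.10.9, pandas 2.3.3, scipy 1.17.1, numpy 2.4.6).

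Values are given for members called in any comparison, the member of each family with the highest mean CPM per kb in uninjured whole DRG, the 3 members with the smallest unadjusted p in each direction of each comparison, and the 5 members with the highest mean CPM in naive sorted neurons; some genes that meet these rules are not reported here. Members and marker lists were chosen with earlier results of these data known.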

Additional observations from a re-analysis of the deposited data

Results flagged for a closer look

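Of 39 cases examined, each 1 value over the mice of 1 group, 5 held a mouse whose gap to the nearest other mouse was large against the range of its group. By chance such a gap is meant to be found in about 1 of 20 separate groups. These cases share mice, and that rate was not checked on these data.

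Kcna4 had 0.938 CPM in SNI 3d mouse 2 and at most 0.0206 CPM in the other 3 mice of that group. Kcnab1 had 189 CPM in SCI 1d mouse 2 and 55.0 to 76.5 CPM in the others. The summed level of the members was 7087 CPM in uninjured whole DRG mouse 1, the highest of its group, and 1496 CPM in naive sorted neurons of mouse 6, the lowest of its group, which had 2 glia-rich wells. The 9 glia markers summed to 124900 CPM in SNI 3d mouse 3, all 3 wells of which were glia-rich.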

How the results depend on the processing

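Over the genes named by the rule, 1132 values kept direction and side of the threshold under the alternatives, 52 lost a call, 48 gained a call and 9 changed sign. In whole DRG 1d after SCI (4 members called) the count was 2 at an adjusted p under 0.05 (1.15% of all genes), 1 to 5 with a mouse left out (0.592% to 3.67%), and 1 with the replicate number as a block (0.721%); 2 of 8 samples correlated best with a sample of their own number, with same-number correlations of -0.228 to 0.335 over 4 pairs. In sorted neurons the counts 1d and 3d after SNI (1 and 1) were 10 and 18 by DESeq2 (6.64% and 9.51% of all genes), 10 and 5 without glia-rich wells (8.19% and 7.58%), 9 and 3 without naive mouse 5 as well (6.35% and 5.95%), 0 to 6 and 0 to 10 with a mouse left out (0.129% to 2.55% and 0.0386% to 3.82% of all genes), and 0 and 0 at an adjusted p under 0.05 (0.213% and 0.0298%), with no RUVr factor (0% and 0%), with residuals not centred (0.00425% and 0.00851%), with the set as a covariate (0% and 0%), and with set and number as a replicate block (0.00425% and 0%); 17 of 22 mice correlated best with a mouse of their own set and number (-0.0442 to 0.393 over 48 pairs), a hint from the data only. The count 1d after SNI was 2 with RLE size factors (0.825% of all genes) and 5 with a mean count of at least 10 (1.79% of the 18372 genes then tested). By DESeq2 the counts of 0 became 2 (SCI 1d, 5.33% of all genes), 4 (SCI 3d, 5.19%), 4 (SNI 1d against SCI 1d, 4.75%) and 5 (SNI 3d against SCI 3d, 4.14%), and SNI 1d against SCI 1d gave 1 without glia-rich wells (0.889%) and 2 without naive mouse 5 as well (2.19%). The fold change of Kcnb2 3d after SCI (-1.46) became 0.0979 without glia-rich wells, 0.173 without naive mouse 5 as well, 0.0290 with no RUVr factor and 0.0189 with the set as a covariate. That of Kcnip2 3d after SNI (1.67) became -0.0339 with residuals not centred and -0.0289 with the block, and ranged from -0.60 to 2.55 with a mouse left out. That of Kcnq1 1d after SCI (4.01) ranged from -1.78 to 5.01 with a mouse left out. The cause was not tested. The smallest difference that could be called in sorted neurons was not determined. The simulated data held changes of a few set sizes in SNI 1d mice only, and the share of them called is not reported here.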
